A study of Mus musculus with 4 samples.

Results

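The LIF receptor and STAT3 pathway was examined as 9 genes (Lifr, Il6st, Jak1, Jak2, Stat3, Socs3, Pim1, Pim3 and Tcl1) of the 43629 genes counted in mouse embryonic stem cells. They were chosen by name as the receptor, its kinases, STAT3 and genes known to respond to it, and each symbol matched 1 Ensembl gene. Earlier results of these data were known when they were chosen. Tcl1 is also known as a target of OCT4, so its place among the STAT3 targets is less certain. All cells were of 129/Ola background, came from blastocysts and grew in serum with LIF. The Drosha knockout group held a library with the Pro-rich region of Drosha deleted (KO1, genotype Drosha knockout 1) and a library with the R/S-rich region deleted (KO2, genotype Drosha knockout 2), both at passage 7 and made by a paired CRISPR/Cas9 approach. The wild-type group held 2 E14 libraries at passage 33 (WT1) and passage 42 (WT2), whose titles mark them as re-used. The knockout titles also bear the mark d5, whose meaning the labels leave unsaid. No culture without LIF was part of the comparison, and genotype, passage and the origin of the libraries cannot be told apart. The labels do not say whether a knockout library came from 1 clone, nor that libraries of a group were separate cultures. Every p-value here therefore measures only how these samples spread, which may be technical.

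LIF is the cytokine that keeps mouse embryonic stem cells undifferentiated in serum culture. It joins LIFR to IL6ST, the signalling subunit (gp130) shared by the IL6 family of cytokines. Janus kinases bound to both chains then phosphorylate STAT3, which moves to the nucleus and switches on targets, among them the inhibitor SOCS3. DROSHA makes the first cut in primary microRNA transcripts, and the miR-290 microRNAs are abundant in wild-type mouse embryonic stem cells. Mature microRNAs were not measured here.

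The libraries held 29264632 to 42322129 counts, and every value below is in CPM after TMM scaling unless it is called TPM. Drosha had 158 CPM (KO1) and 158 CPM (KO2) in knockout cells, against 364 CPM (WT1) and 357 CPM (WT2) in wild-type cells, and gene counts do not show which region was deleted. The knockout libraries lay close together, with a median absolute log2 ratio of 0.07 between them over 17022 tested genes, while that between the wild types was 0.45. Markers of embryonic stem cells were high in every library, with levels that summed over 8 genes to 6543 (KO1) and 6608 (KO2) CPM, against 5569 (WT1) and 6358 (WT2) CPM. Endoderm markers moved with the groups, at 68.6 (KO1) and 68.2 (KO2) CPM, against 242 (WT1) and 416 (WT2) CPM over 10 genes. All 8 tested members were lower in the fit, 3 passed (edgeR adjusted p under 0.05), and Afp had at most 0.0225 CPM. Over 10 fibroblast markers the sums were 60.4 and 54.7 CPM (knockouts), against 45.2 and 45.5 CPM (wild types). Over 8 trophoblast markers they were 95.2 and 93.6 CPM, against 47.1 and 49.0 CPM. Of these 8 genes 4 stayed under 1 CPM in every library. Of the 4 tested, the knockouts lay above the wild types for 2 and the groups overlapped for 2. Over 6 blood markers the sums were 16.1 and 17.4 CPM, against 20.5 and 10.5 CPM, with Hbb-bt at 0 throughout. In edgeR 1 of 4 tested trophoblast markers and 1 of 8 stem cell markers passed, both higher in the knockouts. Of 7 tested fibroblast markers 6 were higher in the fit and 0 passed, and of 3 tested blood markers 0 passed. The part of these cells in the values below was not tested, and in bulk RNA fewer cells of a type and less RNA per cell cannot be told apart.

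The STAT core in promoter windows and matches to microRNAs in 3' UTRs are shown first. Bases outside these were not searched. The letters TTCNNNGAA, the core that STAT proteins bind, read the same on both strands and were searched in the RefSeq promoter windows of the 9 genes (build GRCm38.p6, 250 bases before to 50 after a start, 11 windows). Of the 11 windows, 1 held it, that of Socs3, as did 8.30% of all 32851 windows. The window is shown because Socs3 is the textbook STAT3 target of the set. It lies on the minus strand at chr11:117969317-117969616, and the capitals mark the match TTCTTAGAA, which begins 154 bases before the start.
Socs3 promoter: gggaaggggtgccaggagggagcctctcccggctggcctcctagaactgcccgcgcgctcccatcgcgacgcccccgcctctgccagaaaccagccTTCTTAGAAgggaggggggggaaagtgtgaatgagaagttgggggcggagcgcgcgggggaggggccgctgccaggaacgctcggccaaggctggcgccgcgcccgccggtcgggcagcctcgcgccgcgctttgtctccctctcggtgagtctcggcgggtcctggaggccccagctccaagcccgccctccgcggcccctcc
No match in the other windows says only that these letters are not in those bases.

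Seeds of microRNA families known from embryonic stem cells (bases 2 to 8, in capitals, mature sequences from RefSeq, build GRCm38.p6) were matched to the annotated 3' UTRs. The first and second of the sequences share a seed.
mmu-miR-294-3p: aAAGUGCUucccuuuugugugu
mmu-miR-302b-3p: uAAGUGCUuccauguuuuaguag
mmu-miR-17-5p: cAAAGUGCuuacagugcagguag
mmu-miR-16-5p: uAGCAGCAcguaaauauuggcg
The match to the miR-294 and miR-302b seed, AGCACTT, occurred in 1 of the 9 genes, Il6st, and in 16.6% of 14102 tested genes with a 3' UTR. Its site lies 845 bases into a 3' UTR of 5641 bases, and the overlapping match to miR-17 begins at the next base.
Il6st site: ctggttgaggaAGCACTTtatccagaatg
The miR-17 match GCACTTT was found in 3 of the 9 genes (Il6st, Jak1 and Stat3) and in 13.9% of tested genes. Stat3 held 2 such sites, of which the one nearer the coding region is shown because Stat3 is the transcription factor of the pathway.
Stat3 site: gggcaatctggGCACTTTttaaaatagag
The miR-16 match TGCTGCT was present in 6 of the 9 genes (Lifr, Il6st, Jak2, Pim1, Pim3 and Tcl1), beside 23.6% of tested genes. Lifr and Il6st have 3' UTRs of 6320 and 5641 bases, where the median tested gene has 1094. Those of Jak2, Pim1, Pim3 and Tcl1 are nearer that median, at 1232, 1365, 964 and 962 bases. The part of 3' UTR length in these matches was not tested. The Tcl1 site, the only 1 for miR-16 in that gene, is shown because Tcl1 differed most between the groups.
Tcl1 site: gccccttcccaTGCTGCTgttgcctgctc
Of the other seeds searched, that of miR-19b (TTTGCAC, 12.7% of tested genes) matched Lifr, Il6st and Socs3, that of miR-92a (GTGCAAT, 7.13%) matched Lifr, and that of let-7a (CTACCTC, 10.3%) matched Stat3. These matches describe letters and do not show that a site is used.

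All 9 genes were expressed in every library and passed the expression filter. None of the 9 passed an adjusted p of 0.05 (edgeR quasi-likelihood test, Benjamini-Hochberg over 17022 genes), where 5.45% of all genes did. At an unadjusted p under 0.05 there were 2, Pim3 and Tcl1, beside 37.1% of all genes, and DESeq2 called the same 2 genes, both higher, beside 22.6% of all genes in either direction and 12.2% higher. On the fitted log2 scale the receptors, kinases and STAT3 lay slightly lower in the knockouts (5 of 5 below 0, -0.32 to -0.03). The targets lay higher (4 of 4 above 0, 0.34 to 1.02). Over all genes tested 8381 lay above 0 and 8641 below. Knockout and wild-type libraries did not overlap for 8 of the 9 genes, which was also so for 71.2% of all genes tested. Of these 8 genes 4 were higher in the knockouts, beside 36.5% of all genes, and 4 lower, beside 34.8%. The median log2 fold change of the 9 genes was -0.03, beside -0.02 over all genes.

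**Figure D1:**
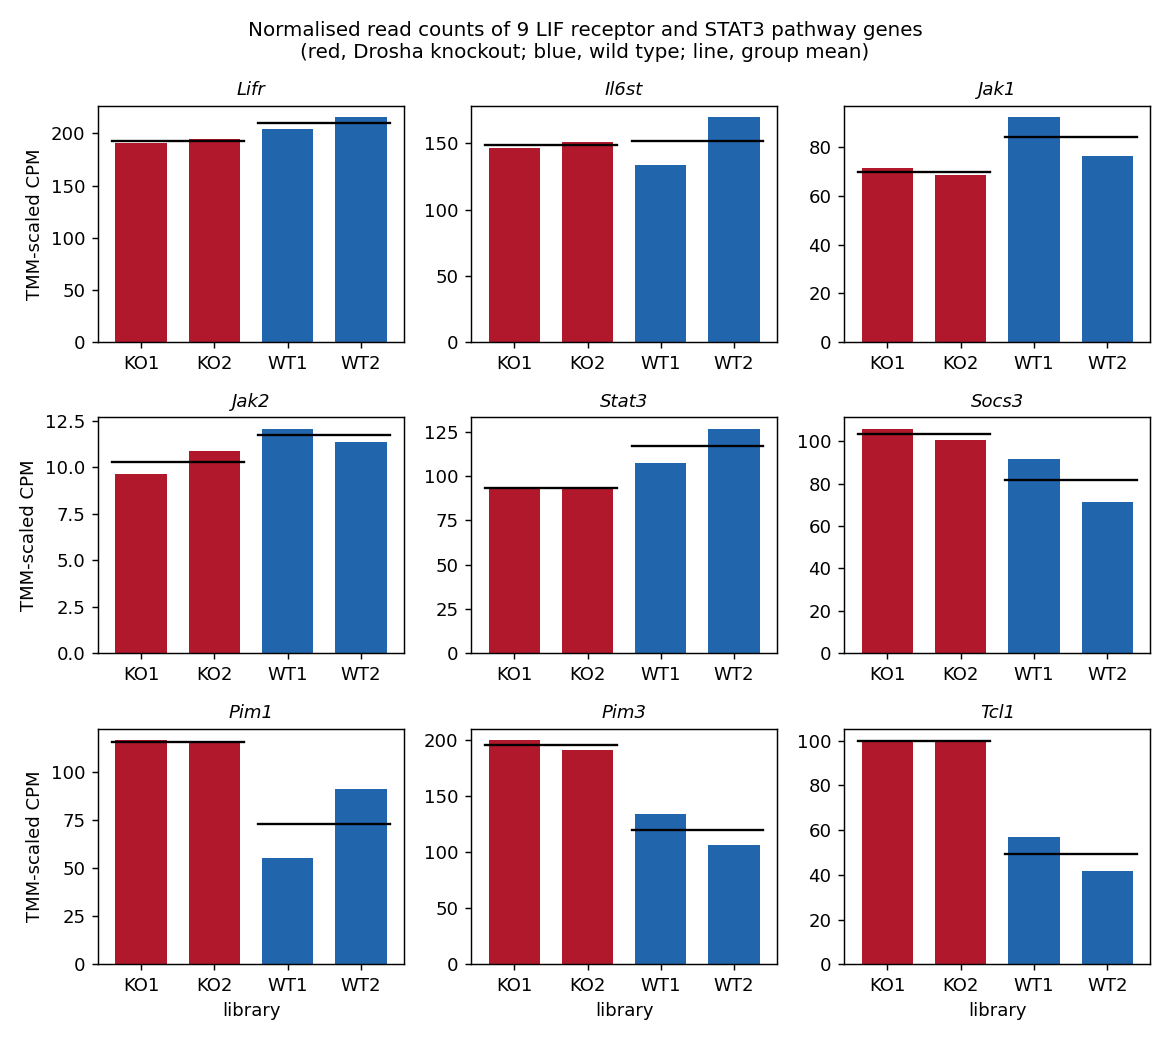
Normalised read counts (TMM-scaled CPM, vertical axis from 0) of each gene in the Drosha knockout libraries KO1 and KO2 and the wild-type libraries WT1 and WT2, with a line at the group mean. Tcl1 stands at 100.4 and 99.5 CPM in the knockouts, above 56.7 and 41.7 CPM in the wild types, while the Il6st groups overlap.

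Neither receptor chain passed. Lifr (ENSMUSG00000054263, chromosome 15, 7090614 to 7197489, build mm10), the chain that binds LIF, had 191 CPM (KO1) and 195 CPM (KO2) in knockout cells, against 204 CPM (WT1) and 215 CPM (WT2) in wild-type cells. Every knockout value lay below every wild-type value, by a log2 fold change of -0.12 ± 0.11 (SE; edgeR adjusted p = 0.470). Il6st (ENSMUSG00000021756, chromosome 13, 112464070 to 112510086), the shared signalling chain and the gene with the miR-294 match, had 146 CPM (KO1) and 151 CPM (KO2) in knockout cells, against 134 CPM (WT1) and 170 CPM (WT2) in wild-type cells. The knockouts lay between the wild types, and the log2 fold change of Il6st was -0.03 ± 0.16 (edgeR adjusted p = 0.911). Scaled by library totals alone, where the median of all genes was 0.13 in place of -0.02, Lifr was at 0.0253 and Il6st at 0.12. With GC and length trends removed they were at 0.34 ± 0.09 and 0.27 ± 0.17 (edgeR adjusted p = 0.129 and 0.375).

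Neither of the kinases that receive the signal passed. Their averages were slightly lower in the knockouts, but with GC and length trends removed the log2 fold change was -0.01 ± 0.14 for Jak1 and 0.21 ± 0.18 for Jak2. Jak1 (ENSMUSG00000028530, chromosome 4, 101152367 to 101265282), the main kinase of this receptor, had 71.2 CPM (KO1) and 68.6 CPM (KO2) in knockout cells, against 92.2 CPM (WT1) and 76.2 CPM (WT2) in wild-type cells. The knockouts lay below both wild types but closer to WT2, the log2 fold change being -0.27 ± 0.15 (edgeR adjusted p = 0.252). Jak2 (ENSMUSG00000024789, chromosome 19, 29251828 to 29313080), a second Janus kinase used by IL6ST, was the least counted of the 9 genes. It had 9.66 CPM (KO1) and 10.9 CPM (KO2) in knockout cells, against 12.1 CPM (WT1) and 11.4 CPM (WT2) in wild-type cells, that is 298 and 482 counts against 482 and 409 counts. The groups did not overlap, but KO2 and WT2 were nearly equal, and the log2 fold change was -0.19 ± 0.18 (edgeR adjusted p = 0.460).

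Stat3 (ENSMUSG00000004040, chromosome 11, 100885098 to 100939540), the transcription factor activated by the receptor, had 93.7 CPM (KO1) and 93.5 CPM (KO2) in knockout cells, against 107 CPM (WT1) and 127 CPM (WT2) in wild-type cells. The knockout libraries coincided and lay below both wild types, and the fitted log2 difference was -0.32 ± 0.14 (edgeR adjusted p = 0.170). It was -0.19 over WT1 and -0.44 over WT2, so that the size depended on the wild-type library. Counts report the mRNA and not the phosphorylation on which STAT3 activity depends. Exons of Stat3 share 72 bases with Stat5a on the opposite strand. The libraries were reverse-stranded per the labels, but the strand setting of the counting is not given in the sources used here.

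The genes placed downstream of STAT3 were higher in both knockout libraries than in either wild type, without passing, and 36.5% of all genes were likewise above. With GC and length trends removed 3 of the 4 lay below 0 (median of the 4 genes -0.37), and Tcl1 alone stayed above. Socs3 (ENSMUSG00000053113, chromosome 11, 117966079 to 117970047), which encodes the feedback inhibitor that binds IL6ST and blocks the Janus kinases, had 106 CPM (KO1) and 101 CPM (KO2) in knockout cells, against 91.6 CPM (WT1) and 71.3 CPM (WT2) in wild-type cells. Its log2 fold change was 0.34 ± 0.17 (edgeR adjusted p = 0.211), at 0.18 over WT1 and 0.53 over WT2. Among the 9 genes it is the one with the STAT core in its promoter window.

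Pim1 and Pim3 encode related serine/threonine kinases that favour self-renewal and survival. Pim1 (ENSMUSG00000024014, chromosome 17, 29490753 to 29496112) had 117 CPM (KO1) and 115 CPM (KO2) in knockout cells, against 55.2 CPM (WT1) and 91.1 CPM (WT2) in wild-type cells. It was the gene of the set that differed most between the wild types (log2 ratio 0.72 for WT2 over WT1), and its log2 fold change of 0.67 ± 0.27 (edgeR adjusted p = 0.159) became 1.08 over WT1 and 0.35 over WT2. Gm26885, an antisense gene that shares 488 exon bases with Pim1, had 10 and 5 counts in the knockouts and 13 and 0 counts in the wild types. Pim3 (ENSMUSG00000035828, chromosome 15, 88862186 to 88865726) had 200.3 CPM (KO1) and 191 CPM (KO2) in knockout cells, against 134 CPM (WT1) and 106 CPM (WT2) in wild-type cells. The groups were well apart, the log2 fold change being 0.71 ± 0.16 (edgeR adjusted p = 0.0671, and DESeq2 adjusted p = 0.0245). Once the GC and length trends were taken out it turned to -0.71 ± 0.11 (edgeR adjusted p = 0.0974). Pim1 and Pim3 ran in opposite directions between the wild types (0.72 and -0.34 for WT2 over WT1).

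Tcl1 (ENSMUSG00000041359, chromosome 12, 105216750 to 105222793), which encodes a small protein that binds and activates the kinase AKT, showed the largest difference of the 9 genes. It had 100.4 CPM (KO1) and 99.5 CPM (KO2) in knockout cells, against 56.7 CPM (WT1) and 41.7 CPM (WT2) in wild-type cells. Its average was 99.9 ± 0.610 CPM in knockout cells, 2.03 times that of 49.2 ± 10.7 CPM in wild-type cells (SD, n = 2 each). The log2 fold change of 1.02 ± 0.19 narrowly missed the threshold (edgeR adjusted p = 0.0552, where the smallest adjusted p of any gene was 0.0482). It passed in DESeq2 (adjusted p = 0.00184), in edgeR without a filter on low counts (adjusted p = 0.0249, where Pim3 also passed beside 10.1% of all genes) and with the replicate number as a block (adjusted p = 0.0343, beside 11.3% of all genes). Tcl1 missed the threshold in edgeR with DESeq2's size factors (adjusted p = 0.0543), upper-quartile scaling (adjusted p = 0.0602) and library totals (adjusted p = 0.0619). It also missed with GC and length trends removed (edgeR adjusted p = 0.110). Over its 12 alternatives the fold change ran from 0.80 to 1.26 and kept its sign. Against WT1 alone it was 0.82 and against WT2 alone 1.26.

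The knockout libraries lay closer together than the wild types for 8 of the 9 genes, and Jak2 was the exception (log2 ratio -0.17 for KO1 over KO2 and -0.09 for WT2 over WT1). Log2 ratios of KO1 over KO2 ran from -0.17 for Jak2 to 0.07 for Socs3, while those of WT2 over WT1 ran from -0.45 for Tcl1 to 0.72 for Pim1. Each knockout library alone against both wild types gave 1.04 for KO1 and 1.02 for KO2 in Tcl1, 0.75 and 0.68 in Pim3, and -0.31 and -0.32 in Stat3. The values were farther apart in Jak2 (-0.27 and -0.10), and Il6st changed sign (-0.04 and 0.0024). None of the 9 genes passed there (edgeR, 0.125% and 0.0% of all genes called, and 1 of the 9 at an unadjusted p under 0.05 in each). These comparisons share the wild-type libraries, and their spread comes from that pair only, which lay farther apart over all genes than the knockouts. For both knockouts together Il6st was at 0.16 over WT1 alone and -0.19 over WT2 alone, so its sign depended on the wild-type library. Both knockouts against WT1 alone gave 8 of the 9 genes past the threshold, all but Lifr, beside 68.0% of all genes. Against WT2 alone there were also 8, all but Jak2, beside 77.7% of all genes, and in both fits the spread comes from the knockout pair only.

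Chromosome 15, which carries Lifr, Pim3 and Drosha, differed between the wild types as a whole. The median log2 ratio of WT2 over WT1 on it was -0.61 over 666 tested genes, the lowest of 20 chromosomes, and the median log2 fold change of knockout over wild type was 0.51, the highest of them. Pim3 at 0.71 lay above that median and Lifr at -0.12 below it. Between the wild types Pim3 (-0.34) and Lifr (0.08) were both above the -0.61 of their chromosome. The part of the chromosome in these 2 values was not tested. Medians of the knockout comparison on the chromosomes of the other 7 genes ran from -0.26 on chromosome 13 to 0.29 on chromosome 17.

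Transcript GC content moved with the differences. Over all tested genes the median log2 fold change followed the GC class of the transcript, at -0.51 for 40 to 45%, -0.28 for 45 to 50%, 0.19 for 50 to 55%, 0.77 for 55 to 60% and 1.38 above 60%. The same classes had medians of 0.25, 0.12, -0.11, -0.40 and -0.60 for WT2 over WT1. The receptors, kinases and Stat3 have transcripts of 44.3 to 52.5% GC, and the targets 52.1 to 61.9%. Pim3 (61.9%) and Socs3 (58.7%) therefore lay below the median of their GC class, Pim1 (56.0%) near it and Tcl1 (52.1%) above it. Lifr (44.4%) and Jak2 (44.3%) lay above theirs, and Stat3 (52.5%) below. Il6st (47.4%) lay above and Jak1 (47.6%) near the median.

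**Figure D2:**
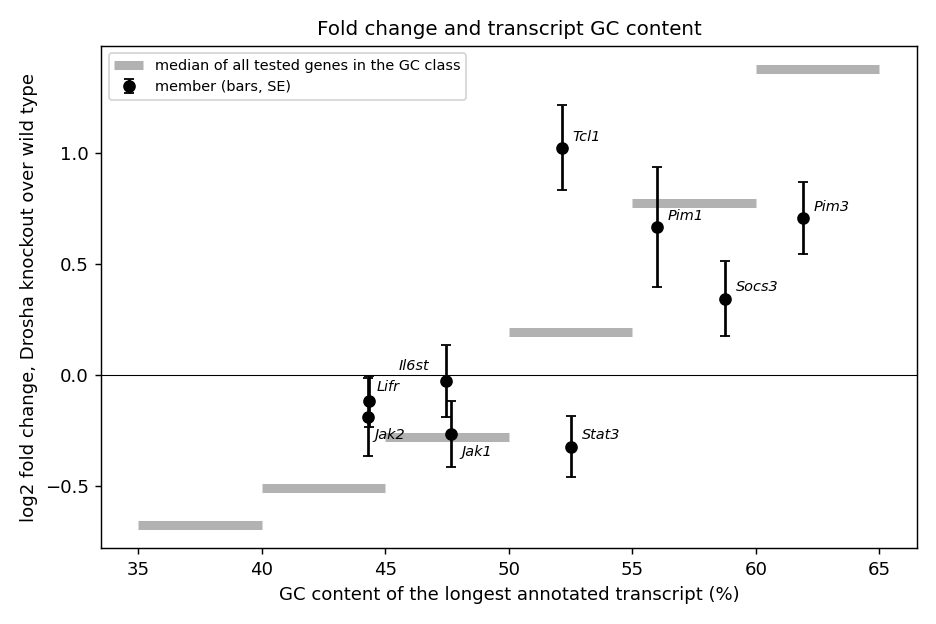
Log2 fold change of Drosha knockout over wild type (vertical axis, bars are SE) against GC content of the longest annotated transcript (horizontal axis, %) for the 9 genes, with grey segments at the median of all tested genes of each GC class (the outer classes are drawn over the plotted span). Tcl1 at 1.02 and 52.1% GC stands above its class median of 0.19, and Pim3 at 0.71 and 61.9% GC below its class median of 1.38.

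With the GC and length trends of each library removed, 6 of the 9 genes changed sign, so the split between upstream genes and targets was not kept. Lifr was then at 0.34 ± 0.09, Il6st at 0.27 ± 0.17 and Jak2 at 0.21 ± 0.18, while Socs3 was at -0.69 ± 0.09, Pim1 at -0.05 ± 0.36 and Pim3 at -0.71 ± 0.11 (edgeR adjusted p = 0.0925 to 0.946). Tcl1 stayed higher at 0.80 ± 0.17 (edgeR adjusted p = 0.110) and Stat3 lower at -0.52 ± 0.20 (edgeR adjusted p = 0.209), and Jak1 was at -0.01 ± 0.14. In that fit no gene of the whole table passed (edgeR, 4269 genes at an unadjusted p under 0.05).

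**Figure D3:**
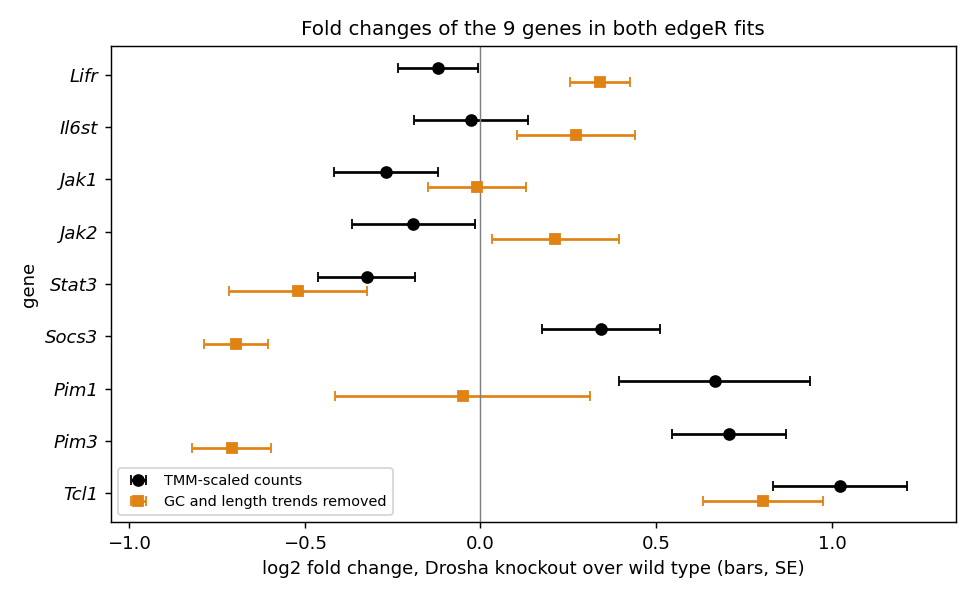
Log2 fold changes of Drosha knockout over wild type with their SE (horizontal axis) for each gene, from TMM-scaled counts (black circles) and with GC and length trends removed (orange squares). Socs3 and Pim3 cross from 0.34 and 0.71 to -0.69 and -0.71, while Tcl1 stays at 1.02 and 0.80.

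Levels of different genes were compared per exon length, as TPM. In the knockouts the order was Pim3 (226 ± 9.73 TPM, SD, n = 2), Tcl1 (152 ± 2.33 TPM), Socs3 (100.3 ± 4.50 TPM), Pim1 (96.8 ± 1.96 TPM), Lifr (50.2 ± 0.334 TPM), Il6st (37.6 ± 0.481 TPM), Stat3 (27.6 ± 0.297 TPM), Jak1 (27.1 ± 0.987 TPM) and Jak2 (5.72 ± 0.422 TPM). Of these neighbours, the libraries of Socs3 and Pim1 overlapped, as did those of Stat3 and Jak1. In the wild types Pim3 (144 ± 32.96 TPM) was again first, and Socs3 (82.0 ± 19.8 TPM), Tcl1 (77.7 ± 21.8 TPM) and Pim1 (62.3 ± 17.7 TPM) followed with overlapping libraries. Lifr (56.3 ± 1.59 TPM) overlapped with Pim1 there. Il6st (39.3 ± 3.997 TPM), Stat3 (35.5 ± 1.84 TPM) and Jak1 (33.9 ± 6.76 TPM) overlapped with their neighbours in turn, and Jak2 (6.75 ± 0.737 TPM) was last. Jak2 thus stood below the other 8 genes in both groups.

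The genes most like Tcl1 over the 4 libraries, by the Euclidean distance of mean-centred log2 CPM among 12720 candidates, were Zdhhc8, Ctsf and Trmt61a (distances 0.02, 0.03 and 0.03). Zdhhc8 had 24.9 and 25.04 CPM in the knockouts, against 14.3 and 10.4 CPM in the wild types. With GC and length trends removed these 3 genes were at -0.13, 0.33 and 0.01 on the log2 scale, against 0.80 for Tcl1.

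The other genes of the pathway were read from 6 lists with 70 genes, of which 63 passed the filter. Past the threshold 4 rose and 3 fell, or 11.1% of those tested. Over all genes 3.51% rose and 1.94% fell. In the lists there were 31 at an unadjusted p under 0.05, or 49.2% beside 37.1%. With GC and length trends removed, none of them passed (edgeR, 17 at an unadjusted p under 0.05). The lists were chosen with earlier results of these data known, so their shares do not measure an effect on the pathway.

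Among 12 ligands and ligand-binding receptors that share IL6ST, 10 were tested, 1 rose and 0 fell (median 0.34). Cntfr, the receptor chain for ciliary neurotrophic factor, had 9.08 and 9.29 CPM in the knockouts, against 2.28 and 3.11 CPM in the wild types. The groups were far apart at these low levels, the log2 fold change being 1.77 ± 0.25 (edgeR adjusted p = 0.0482; 0.54 ± 0.36 with trends removed). Il6 and Il11 did not pass the filter.

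None of the 8 other Janus kinase and STAT genes passed (median 0.06; 1 at an unadjusted p under 0.05 in edgeR and 1 called by DESeq2). Jak3, the kinase of lymphocyte cytokine receptors, had the smallest p, with 47.5 and 42.5 CPM in the knockouts, against 22.4 and 8.75 CPM in the wild types. Its log2 fold change was 1.53 ± 0.49 (edgeR adjusted p = 0.106, and 0.34 ± 0.28 with trends removed), at 1.002 over WT1 and 2.35 over WT2.

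Of 16 inhibitors, phosphatases and other brakes, 15 were tested, 1 rose and 1 fell (median -0.18). Socs1, another inhibitor of Janus kinases, rose to 3.18 and 2.61 CPM in the knockouts, against 0.827 and 0.778 CPM in wild-type cells (log2 fold change 1.85 ± 0.29, edgeR adjusted p = 0.0499). Socs4, a relative known for EGF receptor degradation, fell to 27.97 and 30.5 CPM in the knockouts, against 62.9 and 57.1 CPM in the wild types (-1.04 ± 0.14, edgeR adjusted p = 0.0482). With trends removed Socs1 was at 0.78 ± 0.28 and Socs4 at -0.39 ± 0.16. Their transcripts have 58.8 and 38.5% GC.

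Among 15 further STAT3 targets all were tested, and 2 rose and 1 fell (median 0.38, and -0.31 with trends removed). The AP-1 genes Junb and Fos rose. Junb had 22.3 and 17.8 CPM in the knockouts, against 3.78 and 1.83 CPM in the wild types, a log2 fold change of 2.83 ± 0.42. Fos had 30.01 and 29.1 CPM in the knockouts, against 11.8 and 8.97 CPM in the wild types, a log2 fold change of 1.504 ± 0.20. Klf5, a transcription factor of self-renewal, fell to 82.9 and 76.9 CPM in the knockouts, against 159 and 155 CPM in the wild types (-0.98 ± 0.12). All 3 had an adjusted p of 0.0482 in edgeR, and once trends were removed their values were 1.401 ± 0.24, 1.32 ± 0.18 and -0.76 ± 0.10. Chosen after their values were seen, the naive pluripotency targets Tfcp2l1 and Klf4 did not pass (edgeR adjusted p = 0.0538 and 0.226). Tfcp2l1 passed in DESeq2 (adjusted p = 0.00114, beside 22.6% of all genes) and in edgeR without a filter (adjusted p = 0.0235, beside 10.1%). It also passed with the replicate block (edgeR adjusted p = 0.0401, beside 11.3%), and was at -0.63 ± 0.16 with trends removed (edgeR adjusted p = 0.126). Its log2 fold change was -0.95, and on its chromosome 1 the median of tested genes was -0.51, the lowest of 20 chromosomes. The part of the chromosome in this value was not tested. Tfcp2l1 had 500.2 and 513 CPM in the knockouts, against 857 and 1106 CPM in the wild types, and Klf4 had 151 and 144 CPM against 151 CPM (WT1) and 535 CPM (WT2). Genes of this list therefore moved in either direction.

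Of 13 adaptors and PI3K-AKT genes, 0 rose and 1 fell (median -0.35, and 0.02 with trends removed). Pdpk1, the kinase that phosphorylates AKT, fell to 86.5 and 90.2 CPM in the knockouts, against 164 and 162 CPM in wild-type cells (log2 fold change -0.88 ± 0.11, edgeR adjusted p = 0.0482, and -0.49 ± 0.09 with trends removed). Of the 6 relatives of Tcl1, 2 were tested and neither passed (edgeR; 1 at an unadjusted p under 0.05 and 1 called by DESeq2). Mtcp1 had 2.85 and 2.70 CPM in the knockouts, against 5.59 and 6.58 CPM in the wild types (-1.13 ± 0.23, edgeR adjusted p = 0.0581, and -0.42 ± 0.20 with trends removed), opposite in sign to Tcl1. Tcl1b3, Tcl1b4 and Tcl1b5 had no count in any library.

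**Figure D4:**
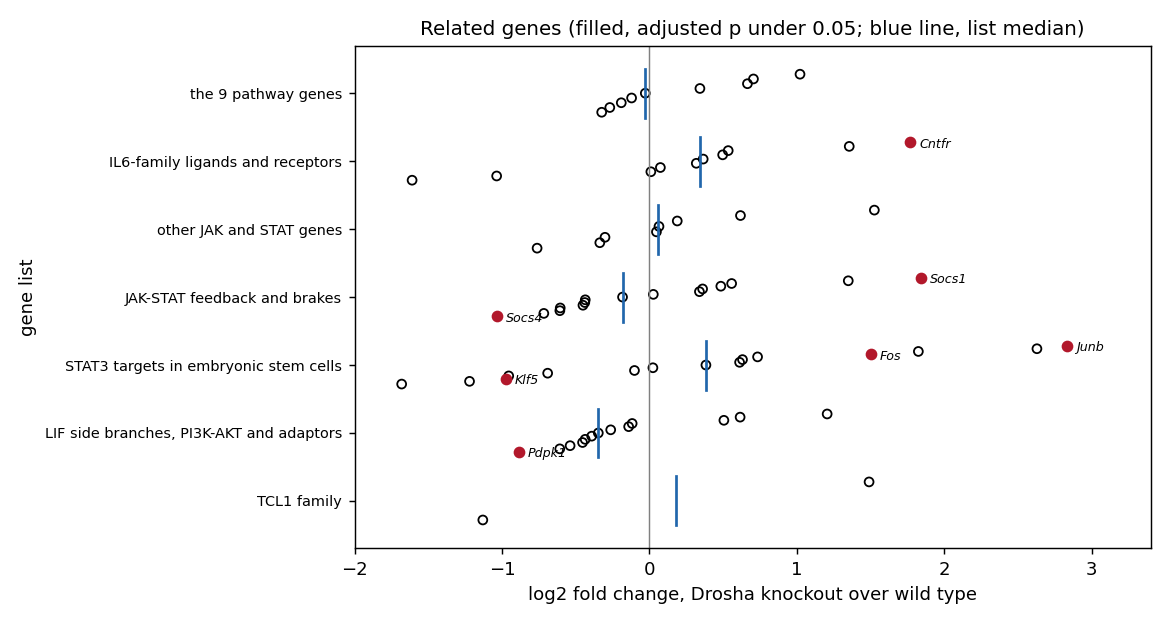
Log2 fold changes of Drosha knockout over wild type (horizontal axis) for the 9 genes and the tested members of the 6 related lists (vertical axis), 1 point per gene, filled and named where the adjusted p was under 0.05, with a blue line at each list's median. The 7 filled points run from -1.04 for Socs4 to 2.83 for Junb, and none is among the 9 genes.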

How the data were processed

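Poly(A) RNA taken up in Trizol was made into reverse-stranded libraries with an Illumina TruSeq kit, per the labels. The files hold raw counts for each Ensembl gene, as the authors deposited them, and the submitters' processing notes name STAR 2.4.2a, featureCounts 1.4.5-p1 and the mm10 build. Counting options and the annotation release are not given in the sources used here. Symbols matched 42462 of 43629 identifiers (97.3%). Coordinates, exon lengths, GC content and 3' UTRs (of the longest coding transcript) came from GENCODE M21.

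The test was edgeR 4.0.16 under R 4.3.3 (TMM scaling, expression filter with minimum count 10 and minimum total 15, quasi-likelihood fit of group alone, Benjamini-Hochberg over all genes, threshold 0.05). Its code was run on simulated counts with equal spread in all libraries and no GC trend. That run does not show how the test behaves on these data. SE is the fitted coefficient over the root of F. Fold changes are knockout over wild type. Fits against 1 wild-type library take their spread from the knockout pair. Log2 ratios of 1 library over another used a prior count of 2. Trends were lowess curves (span 0.3) on GC content and exon length, used as offsets. TPM used summed exon lengths. Alternatives were DESeq2 1.42.0, other scalings, no filter, left-out libraries, a replicate block and, chosen after seeing the data, the knockout libraries summed.

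A count was worth 0.0236 to 0.0342 CPM before scaling, and counting error limits low genes. The 9 genes, all tested, hold 298 to 8651 counts a library. Read on the same strand, no stretch of 50 bases of their longest transcripts occurs in a transcript of another annotated gene. Overlaps on the opposite strand, as of Stat3 with Stat5a and Pim1 with Gm26885, were not covered by that search. Libraries of a pair differed beyond sampling noise, with a chi-square per degree of freedom of 2.26 between the knockouts and 167 between the wild types. The members and lists were chosen with earlier results of these data known. Named were all 9 genes, Drosha, the called genes of each list (up to 3 a direction) or else the gene with the smallest p, and the 3 genes nearest to the member with the smallest p.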

Additional observations from a re-analysis of the deposited data

How the results depend on the processing

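In edgeR 927 genes of the whole table, 0 of the 9 pathway genes and 7 related genes were called. With DESeq2 these counts were 3851, 2 and 18, without a filter 2663, 2 and 14, and with the replicate block 1929, 1 and 12. Upper-quartile scaling, library totals alone, GC and length trends removed, and the knockout libraries summed as 1 sample each gave 0 genes of the whole table and 0 related genes (6267, 6116, 4269 and 1888 genes of the whole table at an unadjusted p under 0.05 in edgeR). Leaving out a library moved the counts to between 0 and 13658 for the whole table, 0 and 8 for the 9 genes, and 0 and 53 for related genes. The low ends came from leaving out KO1 or KO2 and the high ends from leaving out WT1 or WT2, where only the close knockout pair gives the spread.

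Signs turned for Lifr with library totals (0.0253) and with trends removed (0.34). They turned for Il6st with upper-quartile scaling (0.0131), library totals (0.12), trends removed (0.27), without KO1 (0.0024) and without WT2 (0.16), and leaving out a library put it between -0.19 and 0.16. With trends removed they also turned for Jak2 (0.21), Socs3 (-0.69), Pim1 (-0.0505), Pim3 (-0.71) and Zdhhc8 (-0.13). Signs of Jak1, Stat3 and Tcl1 held in each of the 12 alternatives, and the cause of the turns was not tested. DESeq2's size factors in edgeR turned no sign. Libraries share numbers in the labels, but these name alleles and passages. Deviations of same-numbered libraries from their group means had a correlation of 0.05 over 17022 genes, so the replicate block (Tcl1 adjusted p = 0.0343 in edgeR) rests on the number alone. Counts near 10 CPM, as for Jak2, carry the widest errors of the 9 genes in the comparison of WT1 or WT2 alone.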

Other observations

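Transcripts for the ligand itself were detected in these LIF-fed cells. Lif had 6.48 CPM (KO1) and 5.86 CPM (KO2) in knockout cells, against 7.74 CPM (WT1) and 2.14 CPM (WT2) in wild-type cells, so that the knockouts lay between the wild types (edgeR adjusted p = 0.741). Osm, a related cytokine, had 2.07 and 2.12 CPM in the knockouts, against 2.66 CPM (WT1) and 0.222 CPM (WT2). Stat4 had 8.88 CPM in each knockout, against 8.09 CPM (WT1) and 22.1 CPM (WT2). These genes, chosen after their values were seen, differed more between the wild-type passages than between WT1 and either knockout. Stat4 lies on chromosome 1, where the median log2 ratio of WT2 over WT1 was 0.54, the highest of 20 chromosomes. The part of the chromosome in the Stat4 values was not tested.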
